A study of Mus musculus with 6 samples.

Results

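The 10 genes described here form the core of the mammalian circadian clock, together with 1 of its main outputs. They were chosen by name as the rows Arntl, Clock, Npas2, Per1, Per2, Per3, Cry1, Cry2, Nr1d1 and Dbp of a table of 23057 genes. All 10 were in the table, and all 10 passed the filter of a mean of at least 0.5 FPKM, as did 14585 genes in all. FPKM is a fragment count scaled to transcript length and to the number of mapped fragments, so levels can be compared between genes.

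The RNA came from brains of C57BL/6 mice, dissected after perfusion with PBS. The irradiated group is 3 mice that received cranial X-rays at a total dose of 10 Gy through a collimated field of 10.08 mm diameter. The mock group is 3 mice that were mock-irradiated, and both groups were sampled 30 days later. No tumor, transgene or drug is named in the sample labels of either group, and neither the ages of the mice nor the time of day of dissection is stated there. That separate mice were used is stated for the series (3 per group). The comparison asks how RNA levels in brain differ 30 days after irradiation.

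The clock is a loop of transcription and repression that runs in nearly every cell. ARNTL (also called BMAL1) pairs with CLOCK, or in forebrain with NPAS2, binds E-box elements in DNA and switches on the Per, Cry, Nr1d1 and Dbp genes. PER and CRY proteins then return to the nucleus and block that pair, while NR1D1 (REV-ERBα) represses Arntl, so that transcripts of the E-box targets and of Arntl peak at different times of day. Brain regions outside the suprachiasmatic nucleus, the master pacemaker in the hypothalamus, also run this loop. In tissue taken at different times of day, most E-box targets and Arntl are displaced in opposite directions.

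Promoter sequences show which members carry the clock's own elements next to their start sites. In the 250 bases before each annotated start in RefSeq (GRCm38.p6, which mm10 represents), 9 of the 10 members had an entry, with 13 start sites between them. The windows below are shown because they hold a match, with the matching bases in capitals. The E-box is CACGTG, its variant the E′-box is CACGTT (read as AACGTG on the other strand), and the D-box, bound by DBP and its relatives, is TTATGTAA. Each was searched on both strands, and no match overlapped another.
Per1, chr11:69098756-69098815, plus strand: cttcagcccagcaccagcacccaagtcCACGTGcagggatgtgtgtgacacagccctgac
Cry1, chr10:85185092-85185151, minus strand: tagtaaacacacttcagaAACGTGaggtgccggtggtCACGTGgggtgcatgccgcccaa
Cry2, chr2:92434203-92434262, minus strand: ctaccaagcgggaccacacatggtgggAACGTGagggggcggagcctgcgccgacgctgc
Nr1d1, chr11:98775378-98775437, minus strand: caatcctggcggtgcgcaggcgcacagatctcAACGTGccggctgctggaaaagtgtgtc
Per3, chr4:151044814-151044873, minus strand: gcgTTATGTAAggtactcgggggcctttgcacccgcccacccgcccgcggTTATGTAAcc

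All 5 windows run 5′ to 3′ along the gene and hold no annotated exon. The Per1 window lies inside the Per1 gene model, whose longest form starts further upstream, and the Per3 window lies inside the Camta1 gene. The E-box starts 166 bases before the start site in Per1 and 60 bases before it in Cry1. Of the 13 member windows, 2 held the E-box, 3 the E′-box and 1 the D-box. Over all 32851 promoter windows of the same length the shares were 6.02%, 3.85% and 0.819%. The D-box form TTACGTAA, the ROR elements ANTAGGTCA and ANTGGGTCA and the CRE TGACGTCA had no match in the members' windows, and were in 0.113%, 0.548%, 0.664% and 1.55% of all windows. A match is a description of the sequence and not a measured binding site.

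In brain after irradiation, Per1 rose and no other member passed the test. The test was limma on log2(FPKM + 0.5), with p-values adjusted by Benjamini-Hochberg over all genes tested and a call at an adjusted p under 0.05. 1 of 10 members was called higher, where 3.48% of all tested genes were, and 0 were called lower, where 4.24% were (7.72% in either direction). At an unadjusted p under 0.05, 3 members were higher and 1 was lower, which is 4 of 10 against 25.6% of all genes. The groups did not overlap for 3 members that were higher and 1 that was lower, against 13.7% and 17.7% of all genes (31.5% in either direction). The members' median log2 change was 0.29, beside -0.018 over all tested genes. With 10 members these counts lie close to the background, and nothing particular to the set is read from them.

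**Figure D1:**
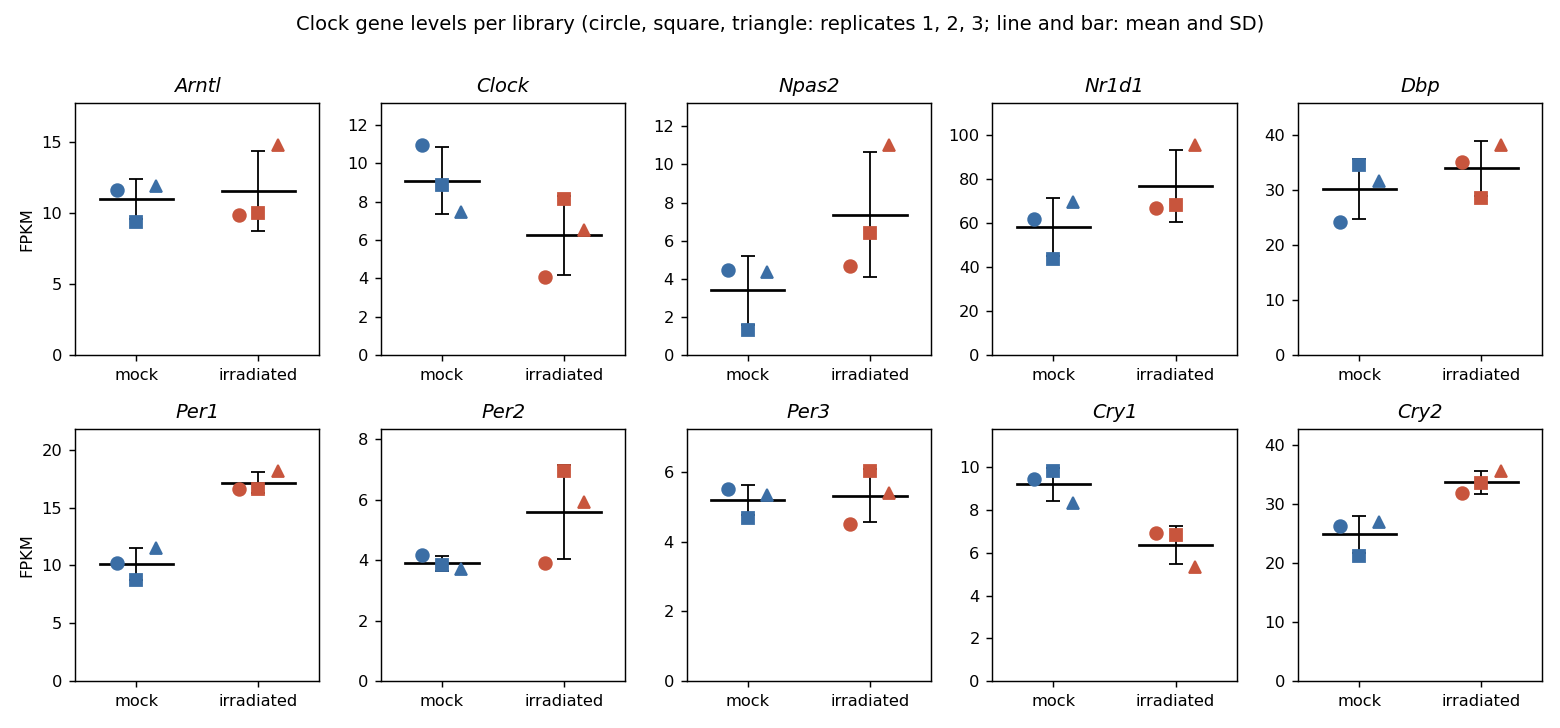
FPKM of each clock gene (vertical axis, starting at 0) in the 3 mock and 3 irradiated libraries, with 1 symbol per library and the mean and SD of each group in black. Per1, Cry2 and Npas2 lay higher and Cry1 lower in every irradiated library than in any mock library, while the groups overlapped for the other 6 genes.

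The libraries differed widely in brain region markers, and their part in the results below was not tested. A fit with the telencephalon list as a covariate cannot separate region from irradiation, since the list itself parts the groups. Its mean log2 level peaked among mock brains at 3.47 (mock 1), below the lowest irradiated value of 3.96 (irradiated 1). In that fit the log2 changes of Npas2, Nr1d1, Arntl and Per3 turned in sign. Those of Clock (-0.69), Dbp (0.35), Tef (0.75) and Hlf (0.40) were at least as large as without the covariate. Those of Per1, Per2, Cry1 and Cry2 were smaller. Of 14 cerebellum genes, 13 were called lower and 0 higher in the irradiated libraries (limma), their summed level going from between 1639 and 2121 FPKM in mock to between 206.3 and 585.1 FPKM. Of 8 telencephalon genes, 3 were called higher and 1 lower, with sums of 178.4 to 351.4 FPKM in the mock brains and 454.3 to 848.8 FPKM in the irradiated brains. The neuron, astrocyte, oligodendrocyte and microglia lists had all 7 of their genes tested in each case, so the labelled tissue held its defining cell types. Of the 7 oligodendrocyte genes 2 were called lower and 0 higher, with sums of 5130 to 6205 FPKM in the mock brains and 2406 to 4233 FPKM in the irradiated brains. In such bulk samples, fewer cells of a type and less RNA per cell cannot be told apart. Six6, a defining gene of the suprachiasmatic nucleus, was listed at 0 in every library, and Nms, a peptide gene of that nucleus, was at most 0.36 FPKM. Vip, a peptide gene of the same list, averaged 8.05 FPKM in the mock brains and 20.3 FPKM in the irradiated brains. Vip was called higher (log2 change 1.37, limma adjusted p = 0.042), as was Rgs16 (1.07, adjusted p = 0.012). Avp was at 0, 4.16 and 0 FPKM in the mock brains and at 3.10, 1.14 and 1.91 FPKM in the irradiated brains. Of the 9 genes of that list 6 were tested, and 3 were called higher and 1 lower. The called ones, such as Grp and Lhx1, are also expressed in other brain regions.

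Nr1d1 was the most abundant member and Per2 the least. Over the 6 libraries the mean level was 67.5 FPKM for Nr1d1, 32.0 for Dbp, 29.3 for Cry2, 13.6 for Per1, 11.3 for Arntl, 7.79 for Cry1, 7.67 for Clock, 5.38 for Npas2, 5.24 for Per3 and 4.75 for Per2. Nr1d1 lay above Dbp in 6 of 6 libraries and Cry2 above Per1 in 6 of 6. Other neighbours in this order were not separated: Dbp lay above Cry2 in 4 libraries, Cry1 above Clock in 3 and Per3 above Per2 in 4. Per1 lay above Arntl in 0 of the 3 mock libraries and in each of the 3 irradiated ones. The same held for Npas2 above Per3.

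Among the repressors, the period gene Per1 gave the single call. Per1 (chromosome 11, 69095217 to 69109960, plus strand), which light, neuronal activity and glucocorticoids also induce, was at 10.2, 8.71 and 11.5 FPKM in the mock libraries. It was at 16.6, 16.6 and 18.2 FPKM in the irradiated ones, so that the lowest irradiated library lay well above the highest mock library. The group means were 10.1 ± 1.40 and 17.1 ± 0.91 FPKM (SD, n = 3 each), a ratio of 1.69. The log2 change was 0.74 (SE 0.16, 95% interval 0.37 to 1.10, limma adjusted p = 0.030). With only 3 libraries a group the call was not stable. It was lost without mock 1 (adjusted p = 0.10), mock 2 (0.090), mock 3 (0.0503), irradiated 2 (0.060) or irradiated 3 (0.12). Leaving out mock 2 and irradiated 1 together also lost it (0.052). With the telencephalon list as a covariate, in the fit that cannot separate region from irradiation, it was lost too (log2 change 0.50, adjusted p = 0.39). Over all genes that fit called 32 higher and 95 lower, against 508 and 618 in the main fit. The fit without irradiated 3 called 147 and 260. For Per1 the adjusted p ranged from 0.017 to 0.39 over all 18 alternatives, and the log2 change from 0.50 to 0.83.

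The other period genes did not pass. Per2 (chromosome 1, 91415982 to 91459324, minus strand), a partner of CRY in the repressor complex, was at 4.16, 3.84 and 3.69 FPKM in the mock brains and 3.90, 6.96 and 5.94 FPKM in the irradiated brains. Irradiated 1 lay within the mock range and irradiated 2 and 3 lay above it, with a log2 change of 0.44 (95% interval -0.053 to 0.93, limma adjusted p = 0.24). Without irradiated 1, Per2 was called (log2 change 0.66, adjusted p = 0.049, against 0.049 to 0.73 over the alternatives). Per3 (chromosome 4, 151003652 to 151044665, minus strand), the period gene whose window holds a pair of D-boxes, was at 5.51, 4.69 and 5.34 FPKM in the mock brains and 4.51, 6.03 and 5.38 FPKM in the irradiated brains. The irradiated values lay on both sides of the mock range, and the log2 change was 0.027 (95% interval -0.36 to 0.41).

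The cryptochromes, light-receptor relatives that block the activator pair, lay in opposite directions. Cry1 (chromosome 10, 85131700 to 85185064, minus strand) was at 9.45, 9.85 and 8.36 FPKM in the mock brains and 6.93, 6.83 and 5.35 FPKM in the irradiated brains. Cry2 (chromosome 2, 92403646 to 92434043, minus strand) was at 26.3, 21.3 and 26.9 FPKM in the mock brains and 31.8, 33.6 and 35.7 FPKM in the irradiated brains. For neither gene did the groups overlap, yet neither passed the adjustment. The log2 change was -0.51 for Cry1 (95% interval -0.89 to -0.12, limma adjusted p = 0.10) and 0.44 for Cry2 (0.081 to 0.80, adjusted p = 0.12). Cry1 and Per1 both hold an E-box in the windows above, and their levels were displaced in opposite directions.

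Of the activators, Arntl was the steadiest and Npas2 the most variable. Arntl (chromosome 7, 113207465 to 113314126, plus strand), the obligate partner in the activator pair, was at 11.7, 9.35 and 11.9 FPKM in the mock brains and 9.85, 10.03 and 14.8 FPKM in the irradiated brains. Its groups overlapped, and the log2 change was 0.055 (95% interval -0.40 to 0.51, limma adjusted p = 0.88). Clock (chromosome 5, 76209868 to 76304792, minus strand), the partner of ARNTL in most tissues, was at 11.0, 8.87 and 7.46 FPKM in the mock brains and 4.06, 8.15 and 6.53 FPKM in the irradiated brains. Irradiated 1 was far below the rest, irradiated 2 lay above mock 3, and the log2 change was -0.54 (95% interval -1.12 to 0.044, adjusted p = 0.23).

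Npas2 (chromosome 1, 39193731 to 39363236, plus strand), the forebrain counterpart of Clock, was at 4.49, 1.32 and 4.36 FPKM in the mock brains and 4.68, 6.38 and 11.02 FPKM in the irradiated brains. Its highest library was 8.32 times its lowest, the widest span of the 10 members. The groups did not overlap, though irradiated 1 stood only just above mock 1, and the log2 change was 1.07 (SE 0.43, 95% interval 0.099 to 2.04, limma adjusted p = 0.16). The library with the least Npas2, mock 2, also had the lowest telencephalon list, at -2.10 on the centred log2 scale, and irradiated 3 had the most Npas2 and the highest list value, 1.29. With that list as a covariate, in the fit that cannot separate region from irradiation, the Npas2 log2 change turned to -0.20. The limma adjusted p was 0.77 there, against 0.080 to 0.77 over the alternatives.

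**Figure D2:**
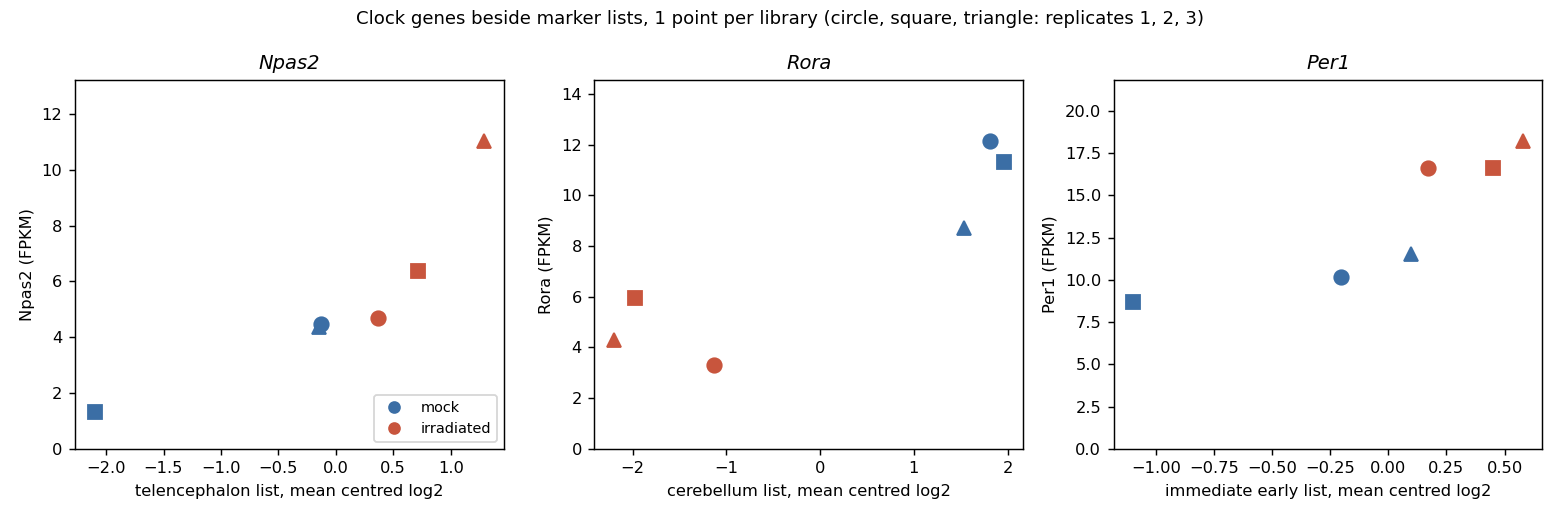
FPKM (vertical axes) against the mean centred log2 level of a marker list (horizontal axes), 1 point per library: Npas2 against the telencephalon list, Rora against the cerebellum list and Per1 against the immediate early list. The mock 2 library (blue square) has the lowest Npas2 and the lowest telencephalon list, and the Rora points fall into 2 sets, mock and irradiated, that the cerebellum list also separates.

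Nr1d1 and Dbp, the strongly rhythmic E-box targets outside the repressor complex, did not pass. Nr1d1 (chromosome 11, 98767932 to 98775333, minus strand) was at 61.7, 43.8 and 69.4 FPKM in the mock brains and 66.6, 67.9 and 95.4 FPKM in the irradiated brains. Mock 3 lay above irradiated 1 and 2, and the log2 change was 0.40 (95% interval -0.12 to 0.91, limma adjusted p = 0.30). Its exons share 263 bases, 8.55% of their length, with Thra, a thyroid hormone receptor gene on the other strand. The libraries were stranded, but whether reads were counted by strand is not stated in the labels, so the Nr1d1 values are uncertain. Thra was at 215.9, 173.3 and 219.1 FPKM in the mock brains and 318.9, 360.0 and 512.4 FPKM in the irradiated brains (log2 change 0.95, SE 0.23, adjusted p = 0.042). Thra was lowest in mock 2 and highest in irradiated 3, as were Nr1d1, Arntl, Npas2, Per1 and Cry2. The part of Thra in the Nr1d1 values was not tested.

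Dbp (chromosome 7, 45705088 to 45710203, plus strand), a transcription factor that acts through D-boxes, was at 24.1, 34.6 and 31.6 FPKM in the mock brains and 35.1, 28.5 and 38.2 FPKM in the irradiated brains. Irradiated 2 lay below 2 of the mock libraries, and the groups overlapped, with a log2 change of 0.17 (95% interval -0.26 to 0.61, limma adjusted p = 0.60). It shares 539 exon bases, 18% of its exon length, with Sphk2 on the other strand, and reads of the pair may likewise be mixed. Sphk2, a lipid kinase gene, was at 17.6 to 19.8 FPKM in the mock brains and 20.8 to 25.8 FPKM in the irradiated brains.

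Opposed phases were looked for in each library. Each gene was centred on its mean over the 6 libraries on the log2(FPKM + 0.5) scale. The median of 5 E-box targets listed as day-peaking (Per1, Per2, Per3, Nr1d1 and Dbp) was set beside the median of the 3 activators (Arntl, Clock and Npas2). Cry1 and Cry2, also E-box targets, were in neither set. The 5 E-box targets were at -0.13, -0.24 and -0.00040 in the mock brains and at 0.017, 0.19 and 0.33 in the irradiated brains. The activators were at 0.064, -0.24 and 0.016 in the mock brains and at -0.17, 0.14 and 0.40 in the irradiated brains. The medians had opposite signs in 3 of the 6 libraries and the same sign in 3. The extremes of the medians were shared, since mock 2 had the lowest value of both sets and irradiated 3 the highest of both. The difference of the 2 medians averaged -0.071 ± 0.11 in the mock brains and 0.059 ± 0.13 in the irradiated brains (SD, n = 3 each), and the groups overlapped. The difference between these means was 0.13, and it was 0.28 without irradiated 3, 0.21 without mock 2 and 0.21 without mock 3.

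**Figure D3:**
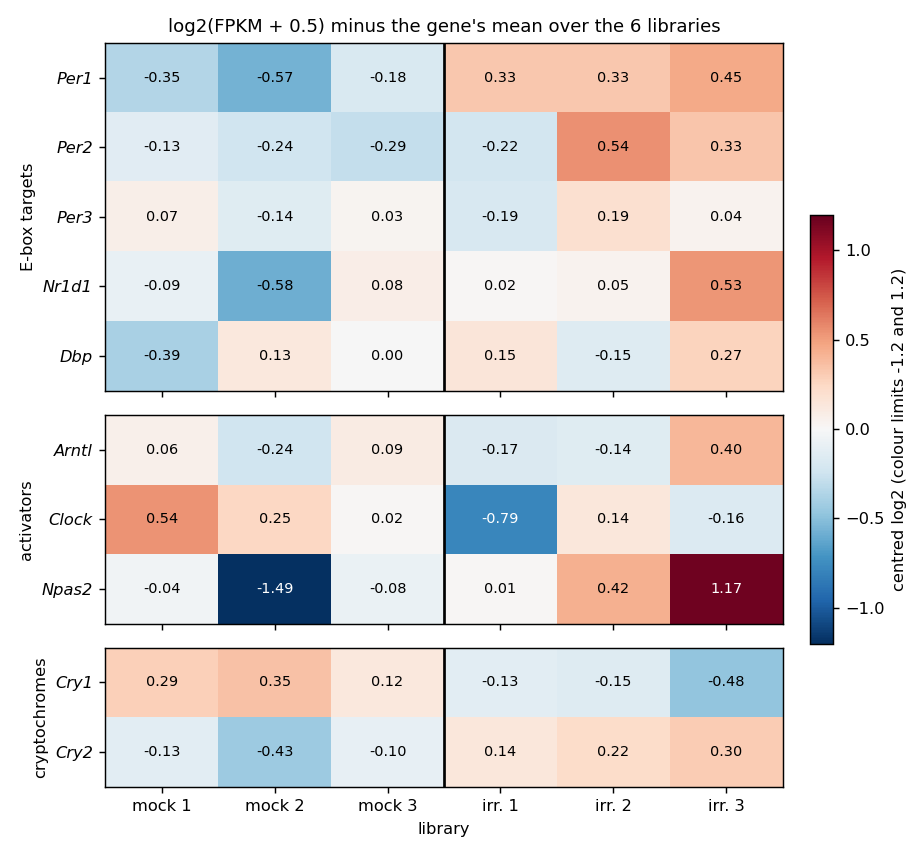
Centred log2 level of each clock gene (rows) in each library (columns), red above and blue below the gene's own mean. The blocks are the E-box targets used for the medians, the activators and the cryptochromes. In mock 2 and irradiated 3, Nr1d1, Arntl and Npas2 share a colour, and Cry1 has the other one.

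Single pairs differed by activator. Nr1d1, which represses Arntl, had its lowest level in mock 2 and its highest in irradiated 3, and Arntl had its own lowest and highest levels in those 2 libraries. Npas2, Per1 and Cry2 had their extremes there too, whereas Cry1 was highest in mock 2 and lowest in irradiated 3. Dbp was also highest in irradiated 3, but had its lowest level in mock 1. Across the 6 libraries, as a description, Pearson's r of the log2 levels was 0.81 for Arntl with Nr1d1, 0.35 for Arntl with Per1 and 0.17 for Arntl with Dbp. For Arntl it was also positive with Per2 (0.27) and Per3 (0.37). For Clock it was -0.65 with Per1, -0.67 with Dbp and -0.36 with Nr1d1, but 0.070 with Per2 and 0.54 with Per3. Clock was thus displaced against some of these targets and not against others. Pearson's r was 0.97 for Npas2 with Nr1d1, 0.97 for Per1 with Cry2 and -0.95 for Per1 with Cry1. In these pairs the 2 groups also lie apart for at least 1 gene. These points share their libraries, and so also the regional makeup of each one.

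Ratios within a library do not depend on how that library was scaled. Of the 5 ratios of an E-box target to Arntl, the 2 of Per1 and Nr1d1 did not overlap between the groups, against 22.1% of all tested genes set over Arntl in this way. The Per1 to Arntl ratio was 0.87, 0.93 and 0.97 in the mock brains and 1.69, 1.66 and 1.23 in the irradiated brains. The Nr1d1 to Arntl ratio was 5.29, 4.68 and 5.82 in the mock brains and 6.76, 6.77 and 6.44 in the irradiated brains. Both were thus higher in every irradiated library, although the Thra overlap applies to the Nr1d1 ratio as well. The Dbp to Arntl ratio was 2.07, 3.70 and 2.66 in the mock brains and 3.56, 2.84 and 2.58 in the irradiated brains, and overlapped between the groups, as did the ratios of Per2 and Per3.

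Of the pairs of related genes, the Cry2 to Cry1, Npas2 to Clock and Nr1d1 to Nr1d2 ratios did not overlap between the groups. The Per1 to Per2 ratio did (2.45, 2.27 and 3.12 in mock, then 4.26, 2.39 and 3.06). No share over all genes was computed for such pairs. The Cry2 to Cry1 ratio was 2.78, 2.16 and 3.22 in the mock brains and 4.58, 4.93 and 6.67 in the irradiated brains. Cry2 was higher and Cry1 lower in every irradiated library, so this ratio could not overlap and adds nothing to those values. The Npas2 to Clock ratio was 0.41, 0.15 and 0.58 in the mock brains and 1.15, 0.78 and 1.69 in the irradiated brains, so Npas2 exceeded Clock in 0 of 3 mock and 2 of 3 irradiated libraries. In an exact two-sided permutation test over the 6 libraries, each ratio whose groups did not overlap had p = 0.1, the smallest that 3 against 3 allows, and 0.18 after adjustment over the 9 ratios computed.

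**Figure D4:**
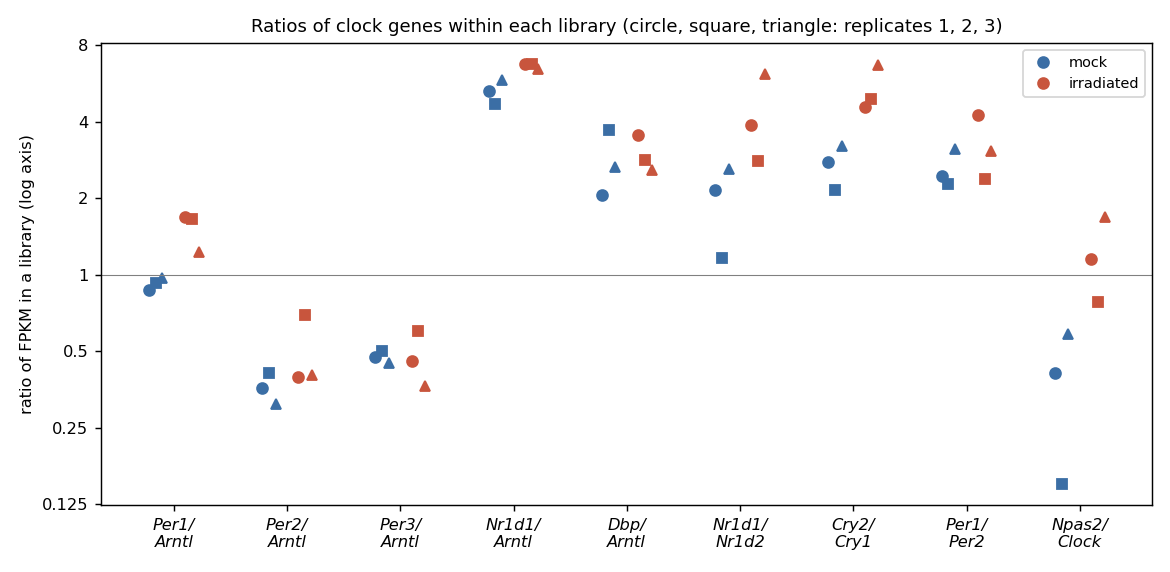
Ratio of the FPKM of 2 clock genes within each library (vertical log axis) for 9 pairs, with mock in blue and irradiated in red. The Cry2 to Cry1 and Npas2 to Clock ratios are higher in every irradiated library, and the Dbp to Arntl ratios of the 2 groups overlap.

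Beyond the 10 members, the rest of the pathway had 2 lower genes. Of 20 other clock genes, all tested, 0 were called higher and 2 lower in limma, where 3.48% and 4.24% of all tested genes were. At an unadjusted p under 0.05 there were 2 higher and 4 lower, against 25.6% of all genes in either direction. Their median log2 change was 0.030, and the groups did not overlap for 6 that were higher and 5 that were lower, against 13.7% and 17.7% of all genes. One of the called genes was Rora, which encodes a nuclear receptor that switches on Arntl at the elements where NR1D1 represses it. Rora was at 12.1, 11.3 and 8.70 FPKM in the mock brains and 3.32, 5.96 and 4.30 FPKM in the irradiated brains, without overlap (log2 change -1.18, SE 0.23, adjusted p = 0.020).

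The cerebellum list beside Rora was at 1.81, 1.96 and 1.54 on the centred log2 scale in the mock brains and at -1.13, -1.97 and -2.20 in the irradiated brains. Rora is known for its role in Purkinje cells of the cerebellum, and the part of regional makeup in its call was not tested. The Rora call was lost without mock 1 (adjusted p = 0.081), mock 2 (0.070) or irradiated 3 (0.073), within a range of 0.013 to 0.26 over the alternatives. It was also lost with the telencephalon list as a covariate (adjusted p = 0.26), while the log2 change there was -1.15. That fit cannot separate region from irradiation.

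**Figure D5:**
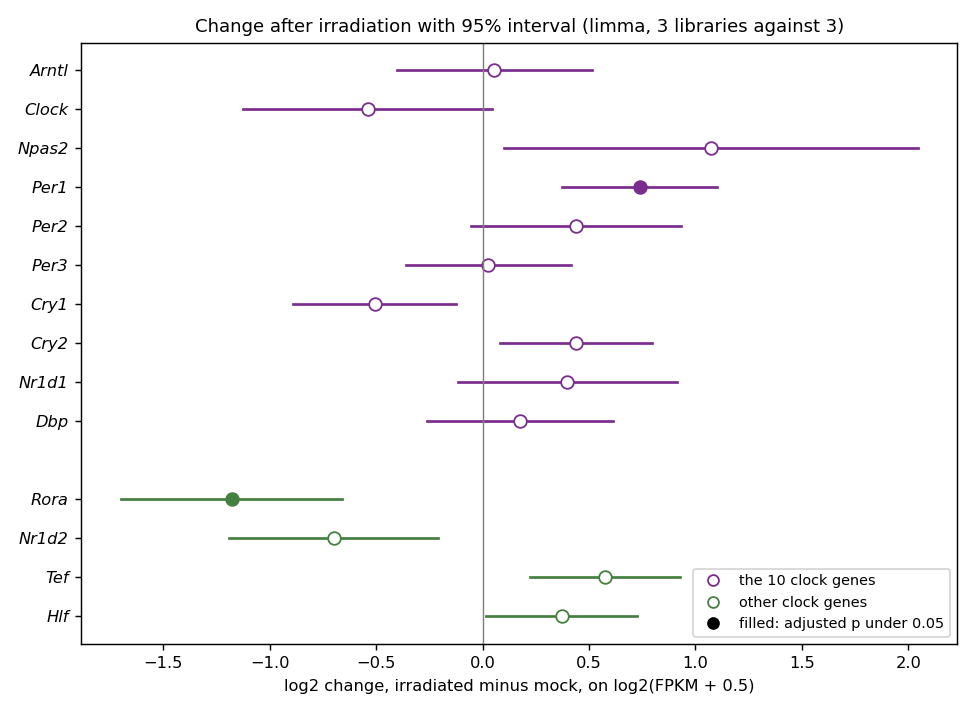
Log2 change, irradiated minus mock (horizontal axis), with its 95% interval for the 10 clock genes and for Rora, Nr1d2, Tef and Hlf, filled where the limma adjusted p was under 0.05. Per1 is the filled gene above 0, and Rora is the filled gene below 0.

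The relatives of Dbp and Nr1d1 did not pass. Tef, a D-box factor like DBP, was at 55.6, 60.1 and 48.0 FPKM in the mock brains and 84.6, 80.4 and 78.9 FPKM in the irradiated brains, without overlap (log2 change 0.58, SE 0.15, limma adjusted p = 0.059). Hlf, the third factor of that family, had a log2 change of 0.37 (95% interval 0.018 to 0.73, adjusted p = 0.18). Nr1d2, the paralog of Nr1d1 and a repressor of the same elements, was at 28.7, 37.6 and 26.5 FPKM in the mock brains and 17.2, 24.3 and 15.5 FPKM in the irradiated brains. Its log2 change of -0.70 (95% interval -1.19 to -0.21, adjusted p = 0.084) had the other sign than that of Nr1d1, and the Nr1d1 to Nr1d2 ratio went from 2.15, 1.17 and 2.61 in mock to 3.87, 2.79 and 6.17 in the irradiated brains. Of the 20 genes, 14, among them the kinases Csnk1d and Csnk1e that phosphorylate PER, had an unadjusted p above 0.05.

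Per1 also responds to neuronal activity and to stress hormones, so 2 other lists were set beside it. Of 18 immediate early genes, 2 were called higher and 0 lower (limma), against 3.48% and 4.24% of all tested genes. At an unadjusted p under 0.05, 6 were higher and 0 lower, against 25.6% of all genes in either direction. The list's median log2 change was 0.67. The called genes were the nuclear receptors Nr4a3, at 1.83, 1.11 and 1.55 FPKM in the mock brains and 4.29, 6.53 and 5.93 FPKM in the irradiated brains, and Nr4a2, with a log2 change of 1.80 (SE 0.27, adjusted p = 0.0066). The list's mean was -0.20, -1.10 and 0.097 on the centred log2 scale in mock libraries 1 to 3, and 0.17, 0.45 and 0.58 in irradiated libraries 1 to 3. Mock 2, the lowest of these, also had the least Per1, and irradiated 3 had the most of both. The summed level of the list was 107.0 to 242.5 FPKM in the mock brains and 222.8 to 323.8 FPKM in the irradiated brains. Of 12 glucocorticoid-responsive genes, 0 were called in limma. At an unadjusted p under 0.05, 2 were higher and 0 lower, against the same 25.6% of all genes. The median log2 change of these 12 genes was 0.34. Fkbp5, a chaperone partner induced by glucocorticoids, was at 9.07, 16.3 and 20.5 FPKM in the mock brains and 21.8, 25.6 and 29.5 FPKM in the irradiated brains (log2 change 0.79, adjusted p = 0.12). The part of either response in the Per1 call was not tested.

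The 3 genes most alike in pattern to Arntl, and the 3 most alike to Dbp, were not among the other clock genes listed here. Among 13447 genes outside the 10 members with a mean of at least 1 FPKM, the 3 with the highest Pearson correlation of log2 levels over the 6 libraries were Eif2d, Hdac2 and Rars for Dbp (r = 0.99, 0.98 and 0.98). For Arntl, Faap100 and Vps37b were among the 3 (r = 0.99 and 0.99). With 6 libraries such values are common: 135 genes had r over 0.9 with Dbp and 86 with Arntl. Whether these larger sets hold other clock genes was not looked at.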

How the data were processed

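Per the labels' protocols, stranded libraries depleted of ribosomal RNA were sequenced single-end (75 nucleotides). The authors deposited FPKM values in 1 table, and the submitters' processing notes name TopHat, Cufflinks, Cuffdiff and mm10; for versions, settings and strand handling: not given in the sources used here. After 1 leftover header line was removed, 14585 of 23057 genes had a mean of at least 0.5 FPKM and entered the test. The model, fitted to log2(FPKM + 0.5) by limma 3.58.1 (R 4.3.3), held a single group term and a variance trend; p-values were two-sided and adjusted by Benjamini-Hochberg. Fold changes on that scale understate low genes. Low values shared no common read step (at most 2.20% of genes under 0.05 FPKM had the same ratio to mock 1), so no count test was run; the labels give 30 to 40 M reads a library, and the mapped depth of each is unknown. The fit was tested on simulated data.

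The members and lists were chosen with earlier results of these data known. All members are named, and other clock genes are named where the unadjusted p was under 0.05. Up to 3 genes with the smallest p come from a list set beside them. Six6, Nms, Vip, Avp, Thra, Sphk2, Csnk1d and Csnk1e were added after their values were seen. Some genes that this rule names are not reported here. Gene models are GENCODE M21 (GRCm38).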

Additional observations from a re-analysis of the deposited data

How the results depend on the processing

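Over 18 alternatives, no clock member was called lower, and the log2 changes of Clock, Per1, Per2, Cry1, Cry2 and Dbp kept their sign. With the telencephalon list as a covariate the signs of Arntl (-0.31), Npas2 (-0.20), Per3 (-0.15) and Nr1d1 (-0.13) turned, 0 members and 0 other clock genes were called, and over all genes 32 were called higher and 95 lower. With 1 library left out, Arntl ranged from -0.13 (without irradiated 3) to 0.15 and was -0.051 without mock 2, and Per3 ranged from -0.062 (without irradiated 2) to 0.13 and was -0.037 without mock 2. The cause of these turns was not tested. Leaving out 1 library at a time gave 0 to 2 members higher, 0 to 2 other clock genes lower, and 147 to 673 genes higher (fewest without irradiated 3) and 254 to 695 lower (fewest without mock 1) in all. Without mock 2 and irradiated 1 together, 0 members were called. Library weights gave 863 genes higher and 976 lower, and an adjusted p under 0.1 gave 1002 and 1149; both called 1 other clock gene higher, Tef. The replicate numbers did not pair the libraries, since the correlations of their deviations from the group means were -0.33, 0.19 and 0.20. With the replicate number as a block, 0 members were called higher, 1 other clock gene and 394 genes in all were called lower, and Per1 had an adjusted p of 0.057. The difference of the phase medians between the groups, 0.13, ranged from 0.11 to 0.16 over the 6 alternatives run for it, and from 0.10 to 0.28 with 1 library left out, which was added after seeing the data. Per the labels 30 to 40 M reads were sequenced per library, but the mapped reads of each one are not known, so no counting error is given for low genes.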

Other observations

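Heat-shock genes, whose levels follow body temperature and so time of day, were measured beside the clock genes. The temperature list of 9 genes holds Cirbp and Rbm3, which respond to cold, beside the heat-shock genes. Of these 9, 1 was called higher and 0 lower (limma), against 3.48% and 4.24% of all tested genes. At an unadjusted p under 0.05, 4 were higher and 0 lower, against 25.6% of all genes in either direction. The list's median log2 change was 0.36. The called gene was Hspa1b, an inducible HSP70 chaperone, at 1.36, 0.95 and 1.54 FPKM in the mock brains and 2.34, 3.45 and 6.65 FPKM in the irradiated brains (log2 change 1.29, SE 0.32, adjusted p = 0.048). Cirbp and Rbm3, the RNA-binding proteins of this list, had log2 changes of -0.042 and -0.17 with overlapping groups. Their levels were looked at after seeing the values.

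Irradiated 3, the library with the highest Arntl, Npas2, Per1, Cry2, Nr1d1 and Dbp, was the one in which the pituitary hormone genes Gh and Prl were above 0, at 5.08 and 1.60 FPKM. Both were listed at 0 in the other 5 libraries and were chosen after their values were seen. The other pituitary genes of that list did not share this: Pomc was highest in irradiated 1 (5.46 FPKM, against 4.22 in irradiated 3), Tshb in mock 2 (1.26 against 0.60) and Lhb in mock 3 (0.79 against 0), while Cga was at 0.094 in irradiated 3 and listed at 0 elsewhere.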
